A study of Mus musculus with 4 samples.

Results

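The 10 genes described here are the 3 D-type cyclins (Ccnd1, Ccnd2, Ccnd3), the CDK inhibitors of the CIP/KIP family (Cdkn1a, Cdkn1b) and of the INK4 family (Cdkn2a, Cdkn2b, Cdkn2c, Cdkn2d), and the retinoblastoma gene Rb1. Members were all array probes that carried 1 of these gene names and were not controls. They numbered 16 probes on 34 spots, out of 55681 probes for 34964 genes or transcripts. All 16 probes were well above background on all 4 arrays, so no member was lost to the filter on dim probes.

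Cyclin D proteins bind the kinases CDK4 and CDK6, and the active kinases phosphorylate the RB protein, which otherwise holds E2F transcription factors inactive and keeps cells in G1. INK4 proteins bind CDK4 and CDK6 directly, while p21 (Cdkn1a) and p27 (Cdkn1b) act on cyclin-kinase complexes, mainly those of CDK2. The Cdkn2a locus also encodes ARF, which stabilises p53, and p53 in turn induces Cdkn1a. In fibroblast culture some of these inhibitors build up with passage and drive senescence, and they are known as a barrier to the conversion of fibroblasts to induced pluripotent stem cells (iPSCs). AKT is known to phosphorylate p21 and p27 and to slow the breakdown of cyclin D1 through GSK3, so part of its action on this pathway is on proteins, which arrays do not measure.

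The study asked what activation of AKT does during iPSC induction. Mouse embryonic fibroblasts (MEFs) were pooled from several male embryos (E13.5) of an Oct4-EGFP transgenic line kept on C57BL/6, in which EGFP follows the Oct4 promoter and enhancer (OE-MEFs). Retroviruses delivered Oct4, Sox2 and Klf4 (OSK) to all groups, and AKT-MER as well to the OSKA groups. In AKT-MER, a myristoylated AKT is joined to an altered estrogen receptor, and 4-hydroxytamoxifen (4OHT) switches the protein on. From 3 days postinfection (dpi), 4OHT or its vehicle was added, and RNA of bulk cells was taken at 8 dpi. There was 1 Agilent 1-colour array for each of 4 groups, which were OSK cells given the vehicle or 4OHT, and OSKA cells given the vehicle (AKT-nonactivated) or 4OHT (AKT-activated). Groups follow the sample titles, and the free-text description of the AKT-activated array, which says the opposite of its title, was not followed.

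Each level below is the log2 intensity of a probe minus the 75th percentile of its array, and 4 values in a row are always in the order OSK with vehicle, OSK with 4OHT, AKT-nonactivated, AKT-activated. A difference is 1 array minus another on this log2 scale. With 1 array per group there were no replicates, so no difference has a test, and the arrays' positions on their single slide cannot be told apart from the groups. The error given is that of the scanner software, 0.20 for a difference of these genes, of which a fixed 10% per intensity makes up nearly all. It covers the measurement on the arrays and not the spread between cultures. In bulk RNA, fewer cells of a type and less RNA per cell cannot be told apart. Between 52.4% and 55.4% of spots were well above background per array. All 12 fibroblast markers were measured on every array, with a summed level of 10.78, 10.84, 10.90 and 10.91. Among 10 pluripotency markers, 8 were measured on each array, and Zfp42 and Esrrb were not. Epithelial markers, of which 6 or 7 of 8 were measured per array and Ocln on none, had a summed level of 2.22, 1.88, 1.43 and 2.14.

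No member differed by 2-fold or more in any of the 4 comparisons. Of all genes, 0.893% did so for the 4OHT effect in OSK cells, 2.91% for the 4OHT effect in OSKA cells, 2.02% for the AKT-MER effect without 4OHT and 3.03% for the AKT-MER effect with 4OHT. At 1.5-fold, 1 of 10 members (Cdkn2a, higher) was apart for 4OHT in OSK cells, beside 5.98% of all genes. With 4OHT in OSKA cells 0 of 10 were apart, beside 9.70%, and for AKT-MER without 4OHT 0 of 10, beside 9.66%. For AKT-MER with 4OHT 1 of 10 (Rb1, higher) was apart, beside 10.6% of all genes. At 0.32 or more on the log2 scale the members apart numbered 2, 1, 2 and 5 in the same order of comparisons, beside 21.0%, 26.9%, 26.4% and 29.6% of all genes. With 10 genes, nothing particular to the set is read from these counts.

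The median log2 difference of the 10 genes was 0.02 with 4OHT in OSK cells and 0.18 with 4OHT in OSKA cells, where the medians of all genes were 0.00 and -0.03. It was 0.09 for AKT-MER without 4OHT and 0.22 for AKT-MER with 4OHT, beside medians of all genes of -0.02 and -0.05. In the AKT-activated cells, 7 of 10 genes were above their level in the nonactivated cells and 8 of 10 above their level in OSK cells with 4OHT, Ccnd1 being the lowest in both. Of all genes, 45.2% and 42.9% were above. The 8 include Cdkn2a at 0.01, and they became 6 under scaling to the spike-in probes and 9 under quantile normalization. The comparisons share arrays, so their counts do not add to one another.

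**Figure D1:**
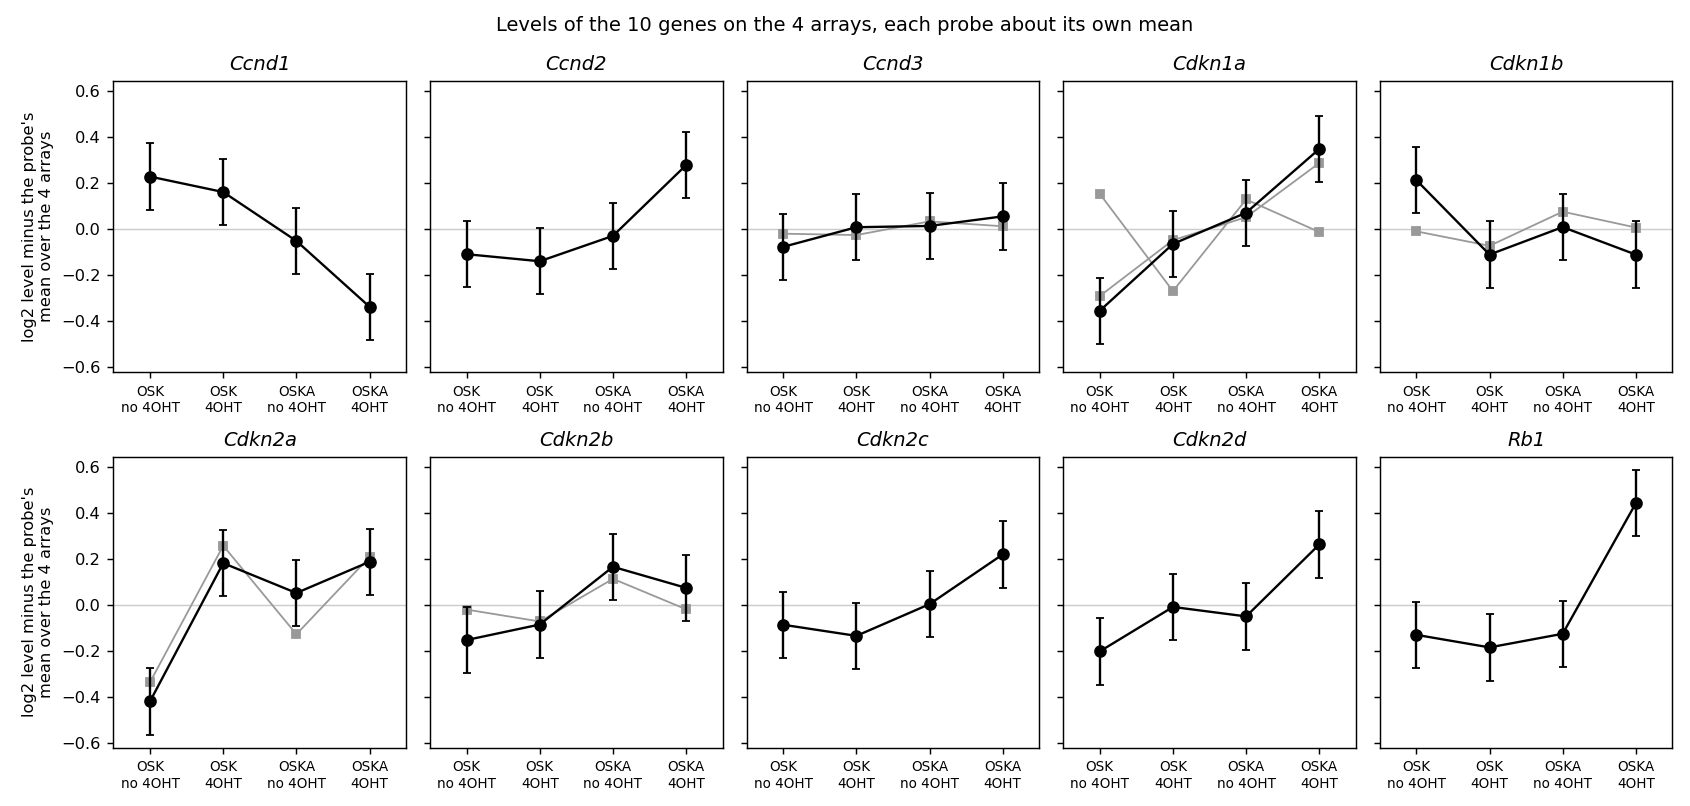
Levels of the 10 genes on the 4 arrays, in log2 units about each probe's own mean over the arrays (vertical axis). Black circles are the brightest probe of the gene with the error of the scanner software on 1 array, and grey squares are its other probes. On the AKT-activated array Ccnd1 is lowest (-0.50 against OSK cells with 4OHT) and Rb1 highest (0.63 against the same), Cdkn2a is lowest on the array of OSK cells without 4OHT, and Ccnd3 spans 0.13 log2 in all.

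**Figure D2:**
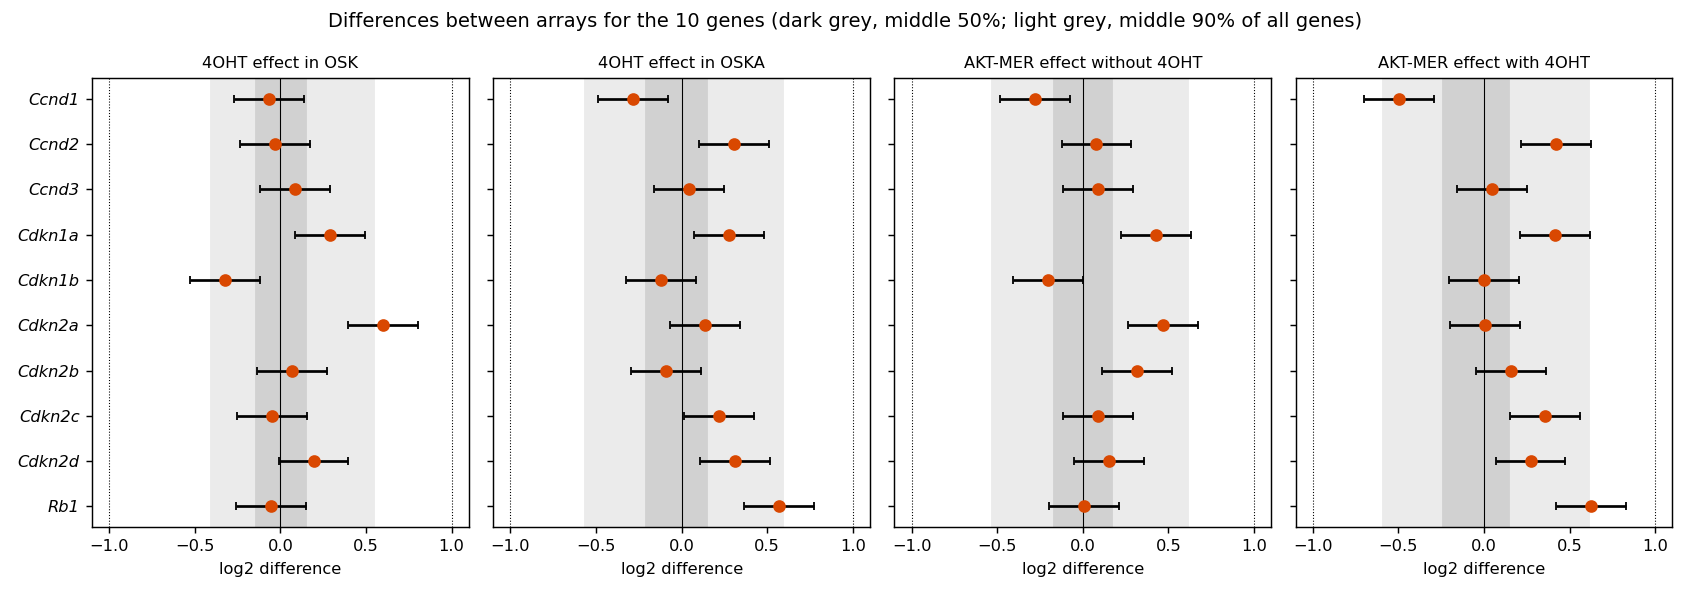
Log2 differences (horizontal axis) of the 10 genes in the 4 comparisons, with the error of the scanner software as bars, over the middle 50% (dark grey) and middle 90% (light grey) of all genes measured. Dotted lines mark 2-fold, which no gene reached. Cdkn2a with 4OHT in OSK cells (0.60) and Rb1 for AKT-MER with 4OHT (0.63) lie just outside the light band.

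The D cyclins did not move as a group, since Ccnd1 was lower, Ccnd2 higher and Ccnd3 level in AKT-activated cells. The probe of Ccnd1, cyclin D1, which mitogens induce, lies at chr7:152116202-152116261 in NCBI37 (mm9), the build of the files. Its levels were 6.11, 6.04, 5.83 and 5.54. The AKT-activated array was lowest, 0.29 below the nonactivated array and 0.50 below OSK cells with 4OHT, a fold of 0.708. The nonactivated array was already 0.28 below OSK cells without 4OHT, beyond the error. The difference of 0.07 between the OSK arrays was within the error, and the effect of 4OHT in OSKA minus that in OSK cells was -0.22, also within the error of 0.29. Over all genes, 7.39% fell at least as far as Ccnd1 for AKT-MER with 4OHT and 17.5% with 4OHT in OSKA cells.

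Ccnd2, cyclin D2, had levels of 5.55, 5.52, 5.63 and 5.94. The AKT-activated array was the highest and the other arrays lay within 0.11 of each other. The difference was 0.31 with 4OHT in OSKA cells and 0.42 for AKT-MER with 4OHT (1.34-fold), values that 12.8% and 9.03% of all genes reached. Ccnd3, cyclin D3, had levels of 5.21, 5.29, 5.30 and 5.34, and its other probe 4.12, 4.11, 4.17 and 4.15. In the 4 comparisons no difference of either Ccnd3 probe was beyond the error, the range over all arrays was 0.13 on the brightest, and 91.3% of genes measured on all arrays spanned at least as wide a range as Ccnd3.

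Cdkn1a, which encodes p21, was the member with the widest range, 0.70 log2 or 1.63-fold. It was lowest in OSK cells without 4OHT and highest in AKT-activated cells. Its brightest probe (chr17:29237377-29237436 in mm9) was spotted 10 times per array, so the spread on the array itself could be read. The means of the 10 spots were 3.52, 3.81, 3.94 and 4.22, with an SD between spots of 0.044 to 0.050. Spots ran from 3.42 to 3.56, from 3.72 to 3.87, from 3.84 to 3.98 and from 4.15 to 4.28. The spots of OSK cells with 4OHT and of AKT-nonactivated cells overlapped, and no other arrays did. This says that the arrays were measured as different, not that cultures would differ again.

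The 4OHT difference of Cdkn1a was 0.29 in OSK cells, which lack AKT-MER, and 0.28 in OSKA cells (spot-based SE 0.020 and 0.021). The difference of these effects was -0.01 (error 0.29). AKT-MER added 0.43 without 4OHT and 0.41 with it. The level was thus also higher with 4OHT in cells without AKT-MER and with AKT-MER in cells without 4OHT, but both of these differences went to -0.016 and -0.030 under scaling to the spike-in probes. That scaling took the median of all genes to -0.31 and -0.47 in these comparisons, and it shifts every gene and every list below by the same amount. The summed level of the fibroblast markers rose in the same order of arrays as Cdkn1a, from 10.78 to 10.91, and its part in the result was not tested. Its 12 members went both ways. With 4OHT in OSKA cells 8 were above 0 and 4 below, as Lum differed by 1.13 and Pdgfrb by -0.67. Thy1, at 5.96, 6.30, 6.37 and 6.77, rose in the order of Cdkn1a, as did Col1a2 and Postn. Vim, at 8.24, 8.16, 8.01 and 7.76, ran in the opposite order.

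The other Cdkn1a probes did not all follow. A probe that the files assign to the transcript NM_001111099 (chr17:29227986-29228045 in mm9, upstream of the brightest probe) had levels of -0.50, -0.25, -0.15 and 0.08, which is the same order of arrays, with 4OHT differences of 0.24 and 0.24. A dim probe for an Ensembl transcript (ENSMUST00000122348) had -1.61, -2.03, -1.63 and -1.77, so it was lower, by 0.42, with 4OHT in OSK cells. With the mean of all 3 probes the 4OHT difference was 0.04 in place of 0.29 in OSK cells and 0.12 in place of 0.28 in OSKA cells. The AKT-MER difference became 0.25 in place of 0.43 without 4OHT and 0.33 in place of 0.41 with it.

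Cdkn1a has 2 starts in RefSeq (GRCm38.p6), and since the files assign the brightest probe to 2 transcripts (NM_007669 and NM_001111099) and the upstream probe to NM_001111099, the 250 bases before each start are shown, 5′ to 3′ on the plus strand. Which start belongs to which transcript was not analysed here. Capitals mark matches to the p53 consensus (2 abutting copies of the 10-base element, at most 1 mismatch) and to the GC box GGGCGG or the E2F motif TTTNNCGC on either strand. The upstream start is at chr17:29090729-29090978 and the downstream start at chr17:29093519-29093768.
Cdkn1a upstream start: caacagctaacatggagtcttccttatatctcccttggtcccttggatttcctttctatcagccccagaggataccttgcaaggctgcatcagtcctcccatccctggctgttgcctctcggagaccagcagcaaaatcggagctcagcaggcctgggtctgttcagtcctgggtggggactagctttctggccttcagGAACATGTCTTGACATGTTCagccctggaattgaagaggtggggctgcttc
Cdkn1a downstream start: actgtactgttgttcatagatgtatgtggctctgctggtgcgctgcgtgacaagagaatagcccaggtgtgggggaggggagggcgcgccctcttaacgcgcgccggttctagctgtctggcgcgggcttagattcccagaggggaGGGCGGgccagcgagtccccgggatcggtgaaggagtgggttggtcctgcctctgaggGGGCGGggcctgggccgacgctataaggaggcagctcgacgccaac
The upstream window holds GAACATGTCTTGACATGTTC, a p53 match with 1 mismatch whose first base is 51 bases before the start. Of 32851 promoter windows of the same length, 25 (0.0761%) hold such a match. The downstream window holds 2 GC boxes and no p53 match. Matches describe letters only, and binding was not measured.

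The pathway that leads to Cdkn1a was followed in a list of 15 genes of the p53-ARF axis. Its median difference was 0.15 with 4OHT in OSK cells (12 of 15 above 0), 0.03 with 4OHT in OSKA cells (10 of 15), 0.23 for AKT-MER without 4OHT (13 of 15) and 0.12 for AKT-MER with 4OHT (12 of 15). Of all genes, 49.4%, 45.2%, 47.0% and 42.9% were above 0 in these comparisons. None of the 15 reached 2-fold in any of them. The macrophage and endothelial markers described below had medians of 0.56, -0.13, 0.42 and -0.19 in the same comparisons, and their part in this list was not tested. Mdm2, the p53 target that marks p53 for breakdown, had levels of 4.42, 4.64, 4.70 and 4.76, so it too was lowest in OSK cells without 4OHT. Trp53 itself had levels of -0.89, -0.88, -0.94 and -0.87. Tigar, a p53 target in sugar metabolism, differed by 0.58 and Sesn2, a stress-induced p53 target, by 0.39 with 4OHT in OSKA cells. In that comparison the p53 inhibitor Mdm4 differed by -0.24 and the antiproliferative p53 target Btg2 by -0.22.

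**Figure D3:**
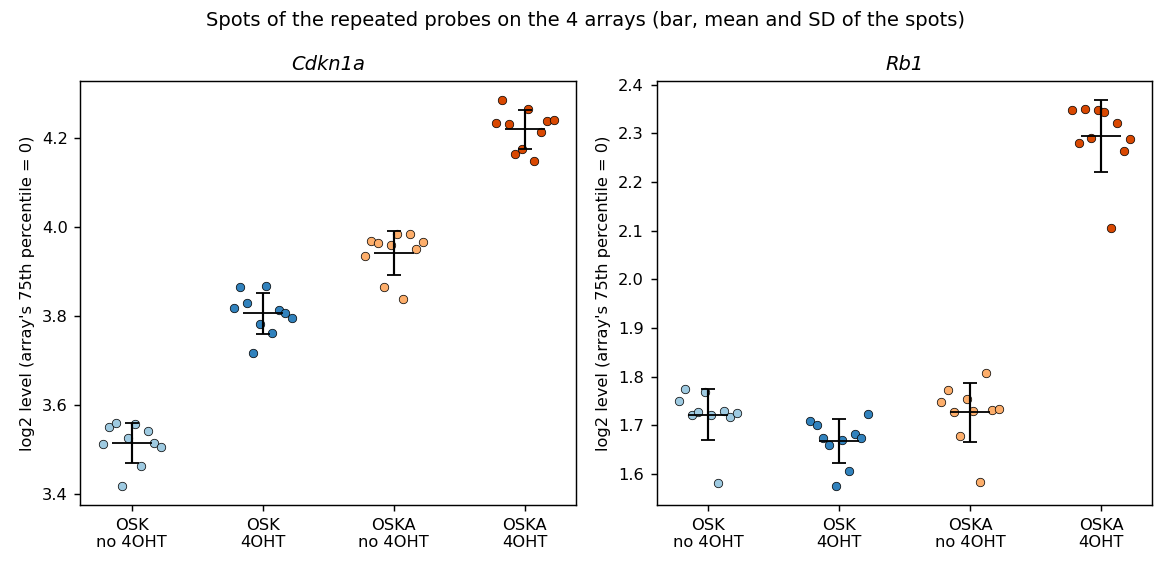
Levels of the 10 spots of the repeated probes of Cdkn1a (left) and Rb1 (right) on each array, as log2 intensity minus the array's 75th percentile, with the mean and SD of the spots. For Cdkn1a the spots step up from a mean of 3.52 to 4.22 over the 4 arrays, and for Rb1 the AKT-activated array (2.11 to 2.35) lies apart from the others (all at or below 1.81). Spots share 1 RNA sample and are not replicates of the condition.

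Cdkn1b, which encodes p27, was highest on the array where Cdkn1a was lowest. Its levels were 3.38, 3.06, 3.18 and 3.06, with OSK cells without 4OHT at the top. The difference with 4OHT was -0.32 in OSK cells and -0.12 in OSKA cells, and AKT-MER made no difference with 4OHT (0.00). A dim second probe had -1.90, -1.96, -1.81 and -1.88 with no difference beyond the error. Cdkn1c, the remaining CIP/KIP gene (p57) and no member of the set, had levels of 4.69, 5.03, 5.01 and 5.37, with 4OHT differences of 0.34 in OSK and 0.36 in OSKA cells.

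Genes that control the turnover of p27, p21 and cyclin D were read in a list of 15, of which 14 were measured. The median was -0.02 in both 4OHT comparisons. Dtl, which targets p21 for breakdown in S phase, differed by -0.10 with 4OHT in OSK and 0.62 in OSKA cells, and by 0.40 for AKT-MER with 4OHT. Skp2, the F-box protein that targets p27, had levels of -0.36, -0.39, -0.79 and -0.45, so its difference of 0.34 with 4OHT in OSKA cells came with a low level in nonactivated cells, and AKT-MER with 4OHT gave -0.06. Fbxo31, an F-box protein that targets cyclin D1, differed by -0.29 with 4OHT in OSK and -0.60 in OSKA cells. Foxo4, a forkhead factor that induces Cdkn1b and that AKT inactivates, had dim levels of -4.01, -3.40, -2.36 and -3.84, and its difference of -1.49 with 4OHT in OSKA cells carries an error of 0.32.

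Cdkn2a was lowest on the array of OSK cells without 4OHT. The brightest probe (chr4:88920405-88920464 in mm9) had levels of 4.10, 4.70, 4.57 and 4.70, and the other probe -0.23, 0.36, -0.03 and 0.31. The first array was the lowest for both, and the others lay within 0.14 of each other on the brightest probe. On the other probe AKT-nonactivated cells were low too, 0.21 above the first array and 0.34 below AKT-activated cells. With 4OHT the difference was 0.60 in OSK cells (1.52-fold) and 0.14 in OSKA cells, and AKT-MER gave 0.47 without 4OHT and 0.01 with it. Under scaling to the spike-in probes the 0.60 became 0.29 and the 0.47 became 0.014, so that the arrays without 4OHT were level on the brightest probe. Among 19599 genes measured on all arrays, 2.80% were as far below every other array on the array of OSK cells without 4OHT as Cdkn2a was (0.47). Per the files both probes lie in both RefSeq transcripts of the gene, which encodes INK4a (p16) and ARF, so the arrays did not tell these transcripts apart.

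Macrophage markers were, like Cdkn2a, lowest on the array of OSK cells without 4OHT. Csf1r, the receptor for the macrophage growth factor M-CSF, had levels of 5.91, 6.51, 6.50 and 6.33, and the surface protein Adgre1 had 3.63, 4.27, 4.24 and 4.32. Cd14, Cd68 and Ptprc (CD45) were likewise lowest on the first array, so all 5 macrophage markers of the list were. Scaling to the spike-in probes moved the median of all genes from -0.02 to -0.47 for AKT-MER without 4OHT. That move is larger than the differences of Cd68 (0.44), Ptprc (0.40) and the dimmer Cdkn2a probe (0.21) in that comparison. Under that scaling these were thus not lowest on the first array. From AKT-nonactivated to AKT-activated cells Csf1r, Cd14, Cd68, Ptprc and Adgre1 differed by -0.17, -0.17, -0.21, -0.09 and 0.08, and the Cdkn2a probes by 0.14 and 0.34. Of these, Cd68 and the dimmer Cdkn2a probe were beyond the error of 0.20. Of the whole list of 9 macrophage and endothelial markers, 8 were well above background on each array and the endothelial marker Cdh5 was not. Of the other endothelial markers, Kdr had levels of 2.71, 3.44, 3.01 and 3.24, also lowest on the first array, Tek had 0.41, -0.15, -0.42 and -0.86, highest on it, and Pecam1 was dim, at -2.77, -2.78, -3.13 and -3.13. The summed level of the list was 6.93, 7.51, 7.45 and 7.33. What part these cells had in the level of Cdkn2a was not tested.

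**Figure D4:**
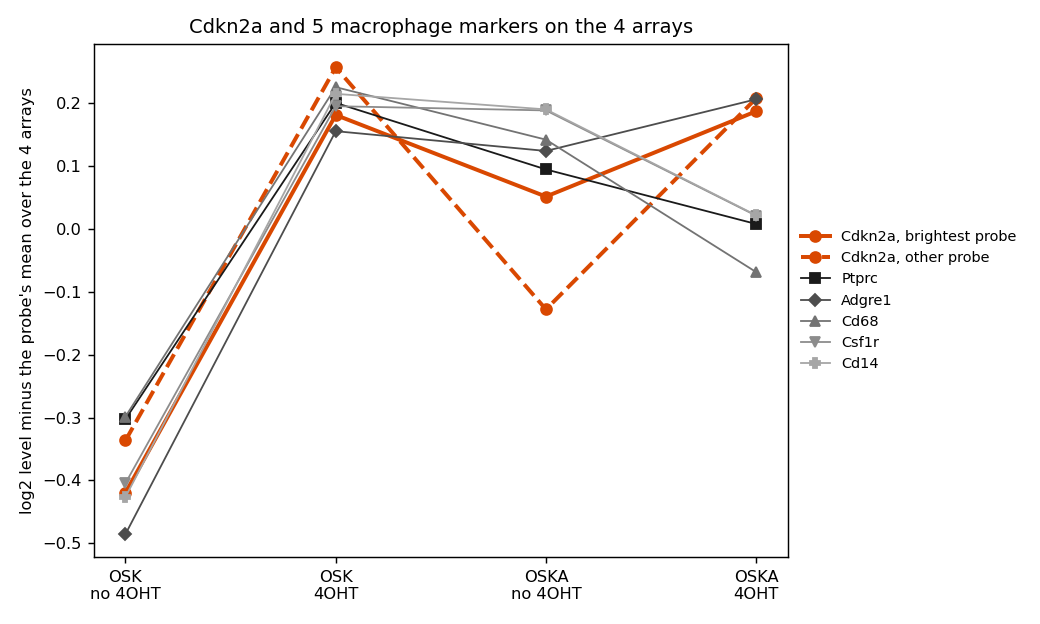
Levels of the Cdkn2a probes (orange) and of 5 macrophage markers (grey) on the 4 arrays, in log2 units about each probe's own mean. All 7 probes are lowest on the array of OSK cells without 4OHT. From AKT-nonactivated to AKT-activated cells the Cdkn2a probes differ by 0.14 and 0.34, against an error of 0.20.

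The Cdkn2a starts of RefSeq (GRCm38.p6) are shown because the files assign both probes to 2 transcripts (NM_009877 and NM_001040654). They are on the minus strand of chromosome 4, the upstream one, known as the start of ARF, at chr4:89294620-89294869 and the downstream one, known as that of INK4a, at chr4:89282193-89282442. Capitals mark the same motifs as above.
Cdkn2a upstream start: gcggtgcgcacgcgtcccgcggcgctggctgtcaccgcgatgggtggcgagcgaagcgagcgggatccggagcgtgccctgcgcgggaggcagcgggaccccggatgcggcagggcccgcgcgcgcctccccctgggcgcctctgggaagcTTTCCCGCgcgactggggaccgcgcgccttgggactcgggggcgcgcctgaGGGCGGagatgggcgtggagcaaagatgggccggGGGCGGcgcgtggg
Cdkn2a downstream start: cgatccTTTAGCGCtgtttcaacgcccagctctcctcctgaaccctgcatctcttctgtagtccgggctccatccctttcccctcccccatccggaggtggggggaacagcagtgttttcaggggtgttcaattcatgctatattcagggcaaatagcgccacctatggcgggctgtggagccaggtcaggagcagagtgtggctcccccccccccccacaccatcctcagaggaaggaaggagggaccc
Each window holds 1 E2F match, a motif found in 4.28% of all windows, and the upstream window also 2 GC boxes, found in 32.7%. Promoter windows were matched for 7 of the 10 genes, with 11 starts in all. No start of the other member genes held an E2F or p53 match. The octamer ATGCAAAT, the letters that Oct4 binds, was in none of the 11 windows and in 1.6% of all windows. The FOXO motif GTAAACA was in 1 of the 11, the upstream start of Ccnd3, and in 3.17% of all.

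The 3 other INK4 genes had small differences. Cdkn2b, which encodes p15 and neighbours Cdkn2a, had levels of 2.89, 2.96, 3.21 and 3.11, and its other probe 0.58, 0.52, 0.71 and 0.58. Both probes were highest in AKT-nonactivated cells. The AKT-MER difference without 4OHT was 0.32 on the brightest probe, which turned to -0.14 under scaling to the spike-in probes. As for Cdkn2a, the array of OSK cells without 4OHT was the lowest on the brightest probe, but its 4OHT difference in OSK cells, 0.07, was within the error.

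Cdkn2c, which encodes p18, had levels of 0.67, 0.62, 0.76 and 0.97. Cdkn2d, which encodes p19-INK4d, had levels of 2.69, 2.88, 2.84 and 3.15. Both were highest in AKT-activated cells, with differences from the nonactivated cells of 0.22 and 0.31 and from OSK cells with 4OHT of 0.35 and 0.27. Of all genes, 12.5% were as far up as Cdkn2d with 4OHT in OSKA cells.

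Regulators of the Ink4/Arf locus, 18 in all, had a median difference of -0.08 with 4OHT in OSK cells and also in OSKA cells, where 17 were measured on both arrays. Polycomb proteins, which silence the locus, went both ways with 4OHT in OSKA cells. Ezh2 differed by 0.30 and Bmi1 by 0.23, against -0.07 and -0.14 in OSK cells. Cbx7, a dim gene with levels of -4.56, -3.89 and -3.64 on the first 3 arrays, was not well above background in AKT-activated cells and so at least 2.19-fold lower there than in nonactivated cells. Ring1 differed by -0.29, Rnf2 by -0.06 and Cbx8 by -0.05, and Suz12 and Eed by 0.08 and 0.04. Hmga2, a chromatin protein that lowers Ink4a and Arf in stem cells, had levels of 2.58, 2.64, 2.52 and 1.62, so it was 0.90 lower in AKT-activated than in nonactivated cells. Myc, which represses Cdkn1a and Cdkn2b and induces Arf, had 1.70, 1.47, 1.07 and 0.40. Tbx2, a repressor of Arf, had 1.15, 0.92, -0.04 and -0.18, low in both OSKA groups and past 2-fold for AKT-MER without 4OHT (-1.19) and with it (-1.10). For AKT-MER with 4OHT the Cdkn2a probes differed by 0.01 and -0.05, Hmga2 by -1.02 and Myc by -1.07. With 4OHT in OSKA cells the Cdkn2a probes differed by 0.14 and 0.34, Hmga2 by -0.90 and Myc by -0.67. A link between these genes was not tested.

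Rb1 was higher on the AKT-activated array than on all others. Its probe (chr14:73595408-73595467 in mm9), also spotted 10 times, had means of 1.72, 1.67, 1.73 and 2.29 with an SD between spots of 0.046 to 0.074. Spots ran from 1.58 to 1.78, from 1.58 to 1.72, from 1.58 to 1.81 and from 2.11 to 2.35. All 10 spots of the AKT-activated array were above all 30 spots of the others. The difference was 0.57 with 4OHT in OSKA cells (1.48-fold, spot-based SE 0.030), against -0.05 with 4OHT in OSK cells.

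For Rb1 the 4OHT effect in OSKA exceeded that in OSK cells by 0.62 (software error 0.29), the furthest from 0 among the 10 genes, and 6.46% of all genes were at least as far up. AKT-MER without 4OHT gave 0.00 and with 4OHT 0.63 (1.54-fold). The value with 4OHT in OSKA cells lay between 0.53 and 0.59 over all processing alternatives. Of the genes measured on all arrays, 2.57% stood above every other array on the AKT-activated array by as much as Rb1 did (0.57).

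The list of 12 pocket proteins and E2F factors had a median of 0.14 with 4OHT in OSKA cells, against -0.02 in OSK cells, and 2 of 12 were at least 1.5-fold higher in OSKA, beside 5.06% of all genes. These were the activator E2f2, with levels of 0.77, 0.84, 0.69 and 1.39, and the dim E2f4, with -3.30, -3.30, -3.86 and -3.24. In that comparison Rbl2 (p130), the pocket protein of resting cells, differed by -0.42 and the repressor E2f7 by -0.25. Among the kinases and cyclins of G1, Ccne1 (cyclin E1, the partner of CDK2 and itself an E2F target) had levels of 1.57, 1.85, 2.09 and 2.76. Cdk4 had 5.58, 5.66, 5.54 and 5.64, and Cdk6 was dim, at -3.65, -3.53, -3.42 and -4.17. Cdk7 and Mnat1, subunits of the kinase that activates CDKs, differed by 0.12 and -0.12 with 4OHT in OSKA cells.

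Textbook E2F targets of S phase had a median of 0.14 with 4OHT in OSKA cells, with 12 of 16 above 0, and of -0.03 in OSK cells, with 5 of 16 above 0. None reached 1.5-fold. Rrm2, a subunit of ribonucleotide reductase, differed by 0.52 and Tyms, thymidylate synthase, by 0.38 with 4OHT in OSKA cells, while Rrm1 (-0.02) and Cdt1 (-0.01) were level. For AKT-MER without 4OHT the median was -0.10, with 1 of 16 above 0, and with 4OHT it was 0.05, with 11 of 16 above 0. The summed level of the list was 7.27, 7.24, 7.15 and 7.28, lowest in AKT-nonactivated cells. Nuclear and mitotic genes known to be lost in senescence, 10 in number, had a median of 0.21 with 4OHT in OSKA cells, 8 of 10 above 0, and of -0.05 in OSK cells. For AKT-MER their median was -0.06 without 4OHT and 0.20 with it. Of these genes, Ccnb1 (cyclin B1) differed by 0.55 and Cdk1 by 0.45 with 4OHT in OSKA cells, and Hmgb1 (-0.17) and Foxm1 (0.00) did not rise there.

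Genes of the senescence secretory programme, 18 in all, split. In AKT-activated cells Igfbp5, an insulin-like growth factor binding protein, had a level of 6.07, against 3.71, 3.58 and 4.17 on the other arrays in order. That was 1.90 above the nonactivated cells, and it was the single gene of the 9 pathway lists at least 2-fold higher in this comparison, where 2.01% of all genes were. Gdf15, a stress cytokine, differed by 0.52. Plau (urokinase) was 0.43 lower in AKT-activated than in nonactivated cells. The list median was 0.22 with 4OHT in OSK cells (13 of 16 measured genes above 0) and 0.10 with 4OHT in OSKA cells (9 of 17). It was 0.14 for AKT-MER without 4OHT (12 of 16) and -0.12 for AKT-MER with 4OHT (7 of 16). In OSK cells the list of macrophage and endothelial markers had a median of 0.56 with 4OHT, and its part in the secretory genes was not tested.

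**Figure D5:**
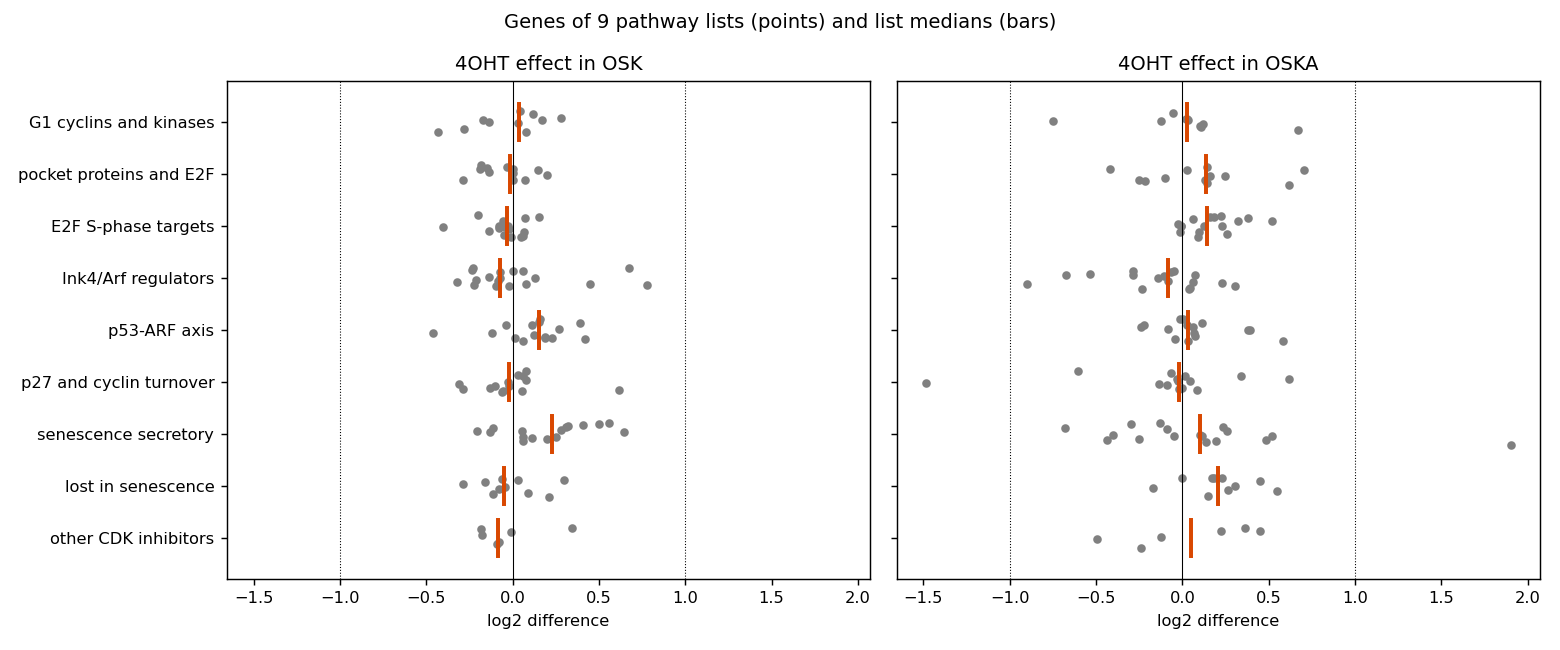
Log2 differences with 4OHT in OSK cells (left) and OSKA cells (right) for the genes of 9 pathway lists (points), with the median of each list (orange bar). Dotted lines mark 2-fold. Medians lie between -0.08 and 0.22, and Igfbp5 (1.90) and Foxo4 (-1.49) are the points beyond 2-fold on the right.

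The remaining CDK inhibitors and CDK-binding proteins, 6 in number, had a median of -0.08 with 4OHT in OSK and 0.05 in OSKA cells. Cdk2ap1, a CDK2-binding protein, differed by 0.45 in OSKA cells, and Cables1, a linker of kinases, by -0.49. The cyclin D-binding protein Ccndbp1 differed by -0.24 there, and by -0.17 to -0.23 in the other comparisons.

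Likeness of pattern was measured for the 2 members of widest effect as the root mean square distance between levels centred over the 4 arrays, among 14268 genes. Nearest to Cdkn1a were Tmem266 (0.02), Dcn (0.02) and Pdia4 (0.03). Dcn, decorin, a matrix proteoglycan of fibroblasts, had levels of 6.84, 7.09, 7.28 and 7.51. Nearest to Rb1 were Mpi (0.01), Taf13 (0.02) and Ggct (0.02), and Mpi had levels of 0.76, 0.72, 0.77 and 1.31. With 4 arrays many genes are this close, as 290 genes lay within 0.1 of Cdkn1a and 259 within 0.1 of Rb1.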

How the data were processed

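Per the labels and the methods of the study, Cy3-labelled cRNA from 100 ng of total RNA of each of the 4 samples was hybridised to 1 Agilent array. The deposited scanner files hold an intensity per spot on a linear scale, corrected for background and spatial trend by Feature Extraction 10.7.3.1, with no normalization between arrays. The deposited series matrix holds the same intensity, rounded, and was used as an alternative. Other deposited columns (spot marks, coordinates in NCBI37) are flags or positions.

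The log2 intensity was reduced by the 75th percentile of each array over unmarked spots that were not controls (104 to 155 marked spots were left out per array). Spots of a probe were averaged, differences used probes marked well above background on both arrays compared, and the brightest probe stood for a gene. Genes were also named through RefSeq accessions (GRCm38.p6; 49.4% of probes). All genes were processed together in Python 3.11.15 (numpy 2.4.6, pandas 2.3.3) and limma 3.58.1 in R 4.3.3, and the steps were tested on simulated data. With 1 array per group no test was run, and the number of arrays limits the precision. Besides the members, the text names genes from each of 9 pathway lists. These are the 2 largest rises and 2 largest falls with 4OHT in OSKA cells among genes measured on both arrays. For the 2 members of widest effect the 3 nearest genes by pattern are named. The 4 lists of cell type markers are given mainly by their summed levels or counts. Further genes were chosen after their values were seen. They are the macrophage and endothelial markers, the fibroblast markers Vim, Thy1, Col1a2 and Postn, and Cdk4, Trp53 and Mdm2. Tbx2, Dmtf1, Ets1 and the Polycomb genes other than Ezh2 and Bmi1 were chosen in the same way. The values of 1 gene that the rule names are not reported here. The members and lists were chosen with earlier results of these data known. Protein sequences and the place of probes within transcripts were not analysed here.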

Additional observations from a re-analysis of the deposited data

How the results depend on the processing

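The number of members apart depended on the fold. At 2-fold it was 0 in all 4 comparisons. At 1.5-fold it was 1 with 4OHT in OSK cells and 1 for AKT-MER with 4OHT, and at 0.32 on the log2 scale it was 2 with 4OHT in OSK cells, 1 with 4OHT in OSKA cells, 2 for AKT-MER without 4OHT and 5 for AKT-MER with 4OHT. Scaling to 7 spike-in probes moved the median of the members to -0.29 with 4OHT in OSK cells and to -0.37 for AKT-MER without 4OHT, since it moved the median of all genes to -0.31 and -0.47. It took the median of all genes from -0.03 to -0.02 with 4OHT in OSKA cells and from -0.05 to -0.19 for AKT-MER with 4OHT. In the latter comparison the median of the members fell from 0.22 to 0.08. The same scaling turned the difference of Cdkn1a to -0.016 with 4OHT in OSK cells and to -0.030 for AKT-MER without 4OHT, and that of Cdkn2b to -0.14 for AKT-MER without 4OHT. Among single member differences over the 8 settings, 299 values moved by less than the error, 18 moved by more, and the 3 named above, each beyond the error before, moved past 0. Many of the 299 could not have moved. Settings that changed the filter on dim probes left every member as it was, since each member probe passed it on every array. Averaging all probes could not move genes with a single probe, and the series matrix holds the same intensity, rounded. Counting small differences too, 14 of the 40 member differences did not keep 1 sign over all settings. Most of these changes came with scaling to the spike-in probes, which shifts all genes alike. Under it the median of the members stayed above that of all genes by the same amount as before. That was 0.02 with 4OHT in OSK cells and 0.11 for AKT-MER without 4OHT. The differences of Ccnd1 (-0.29 to -0.25), Ccnd2 (0.31 to 0.42) and Rb1 (0.53 to 0.59) with 4OHT in OSKA cells kept their sign under every setting. No paired analysis was possible because each group had 1 array, and for that reason no array could be left out in turn. The reading is limited to 1 culture per group on 1 slide.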
